A study of Homo sapiens with 4 samples.

Results

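Chromatin accessibility was examined at 10 genes that encode secreted plasma proteins of the liver: the protease inhibitors SERPINA1 and SERPINA3, the carriers TTR, TF and RBP4, the hemoglobin binder HP, the orosomucoids ORM1 and ORM2, the fetuin AHSG, and CRP. They were chosen by name, and each gene was described by every called peak that overlapped its gene body or the 10 kb on either side. These were 10 of 20007 protein-coding genes to which the same windows were applied. The cells were HepG2, an established line labelled wild type that the authors describe as hepatocellular carcinoma. Every value comes from this single line. The control group held 2 libraries of untreated cells, for which the labels name no vehicle. The tazemetostat group held 2 libraries of cells given 5 µM tazemetostat in DMSO for 48 h. Tazemetostat inhibits EZH2, the methyltransferase of the polycomb complex that marks silenced genes. Each library was made from 50000 cells by Omni-ATAC-seq, in which a transposase cuts and tags open chromatin, and the comparison asks where accessibility differed after EZH2 inhibition.

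Hepatocytes make most of the proteins found in blood plasma, and their genes are controlled by liver factors of the HNF1, HNF4, FOXA and CEBP families. During inflammation IL-6 and IL-1 act on hepatocytes through STAT3, NF-kB and CEBP factors. The plasma proteins that rise in this response, the positive acute phase proteins, include SERPINA1, SERPINA3, HP, ORM1, ORM2 and CRP, while TTR, TF, RBP4 and AHSG are known as negative acute phase proteins. No inflammatory stimulus was part of the series.

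The 4 libraries held 17.2 to 26.6 M mapped tags, a tag being an aligned read. Several library properties moved with the group. Peaks numbered 26133 and 34768 in the controls against 55313 and 54157 under tazemetostat, and the share of tags in peaks was 4.32% and 5.69% against 11.51% and 9.81%. The peak caller used a fragment length of 200 bp for both controls and 144 bp for both tazemetostat libraries. The part of the treatment and the part of these properties in the differences given here cannot be told apart. The authors' methods describe a DNase I step, against loose DNA and DNA of dead cells, for tazemetostat-treated cells. They do not say whether the controls received it, and its part was not tested. Of 10 hepatocyte markers, which include TTR and SERPINA1, 7 to 9 had a peak within 1 kb of the transcription start, with ALB open only in the tazemetostat libraries and FGB in none. Among 4 blood cell markers 0 or 1 had such a peak, and PTPRC had none in any library. Endothelial markers were open in 1 or 2 of 2, with PECAM1 open throughout, stellate cell and fibroblast markers in 1 of 3 (PDGFRB), neuronal markers in 0 or 1 of 2, and markers of fetal-type hepatocellular carcinoma in 1 to 3 of 3. Values below are normalized tag counts, the tags in a peak per 10 M mapped tags. A peak list carries no value where no peak was called.

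After joining peaks that overlapped between libraries, the member windows held 36 regions, of which 2 lay in both the ORM1 and the ORM2 window. Of the 36 regions, 16 were called in all 4 libraries and 2 in both tazemetostat libraries alone, and no region was called in both controls alone. A further 11 regions came from 1 tazemetostat library, 2 from 1 control library, and 5 from other combinations. By position 12 were promoters (1 kb upstream to 100 bp downstream of a start), 16 intronic, 4 exonic and 4 intergenic. Peaks in these windows numbered 19 and 20 in the controls and 27 and 29 under tazemetostat.

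**Figure D1:**
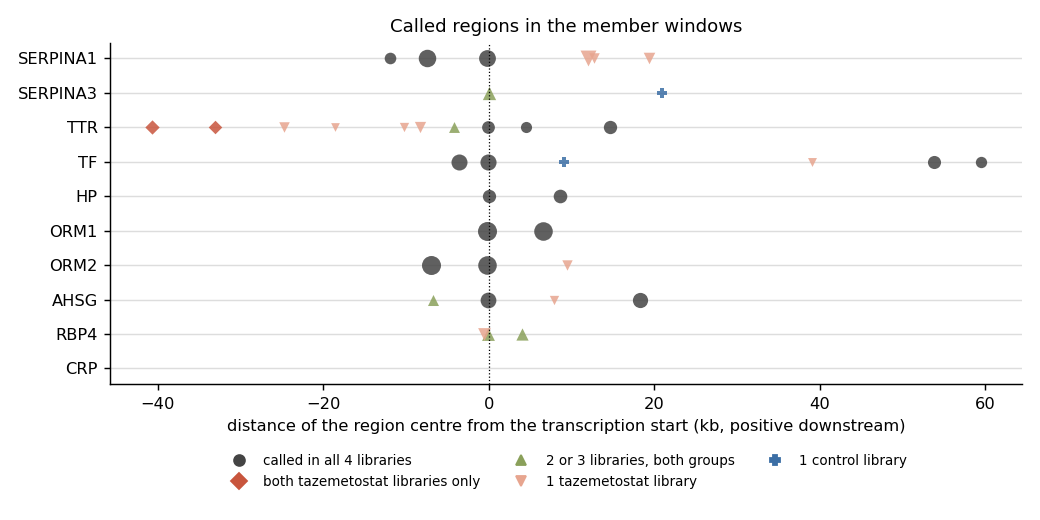
Regions called in the 10 member windows, placed by the distance of their centre from the transcription start in kb (horizontal axis, positive downstream) with 1 row a gene. Marker shape and color give the libraries in which the region was called and marker size grows with the mean normalized tag count. Of the 10 members, 7 have a region called in all 4 libraries at the start, TTR holds both regions called in the tazemetostat libraries alone, and CRP has no region.

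Most member starts were open in untreated cells. A region called in all 4 libraries lay within 1 kb of the start of 7 of the 10 genes, against 32.2% of all protein-coding genes. For 9 of the 10 genes a region at the start was called in at least 3 libraries, against 42.9% of all genes. SERPINA3 and RBP4 lacked the call in control replicate 2, and CRP lacked it in every library. In tag density the start regions of the controls ranked ORM2 (mean 58.4 per kb of peak), ORM1 (55.3), SERPINA1 (48.2), TF (46.5), AHSG (41.2), TTR (41.1) and HP (31.4). The ranges of the 2 control libraries overlapped for SERPINA1 and TF, for TF and AHSG and for AHSG and TTR, so these neighbors were not separated, while both SERPINA1 values lay above those of AHSG and TTR. ORM2, ORM1 and HP stood apart from their neighbors. Against the local background the order differed. In control replicates 1 and 2 the ORM1 start held 4.09 and 4.06 times its tags and the ORM2 start 4.66 and 4.56 times, the lowest of the 7. Under tazemetostat the order was ORM2 (83.7), TF (71.8), ORM1 (68.3), SERPINA1 (60.9), AHSG (60.5), TTR (48.9) and HP (44.5), and ORM1 and SERPINA1 were the only neighbors whose ranges did not overlap.

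**Figure D2:**
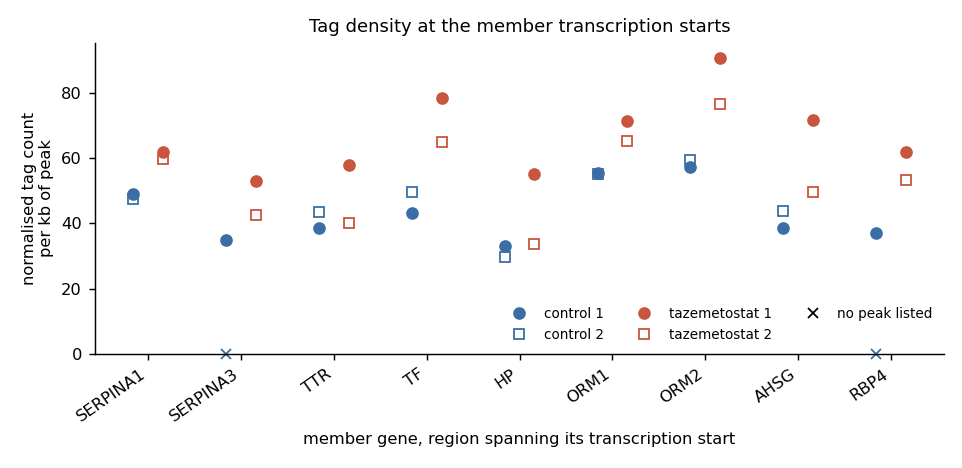
Normalized tag count per kb of called peak (vertical axis) in the region spanning the transcription start of 9 members, with 1 point a library and a cross where no peak was listed. ORM2 has the highest mean in both groups, and SERPINA3 and RBP4 have no value in control replicate 2. The density is not set against the local background.

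Summed over its peaks, the normalized tag count was higher in both tazemetostat libraries than in both controls for all 8 members with a value in every library. The same held for 89.3% of the 11439 protein-coding genes with a value in every library, so the count of members was close to the background. No member was lower in both tazemetostat libraries, against 0.428% of genes. The ORM1 and ORM2 windows share 2 regions, so the 8 members are not 8 separate sets of peaks. The median ratio of group means was 2.28 over the members and 1.96 over all these genes. By gene the ratio was 2.86 for RBP4, 2.84 for TTR, 2.33 for AHSG, 2.32 for SERPINA1, 2.23 for HP, 1.67 for TF, 1.55 for ORM2 and 1.47 for ORM1. The negative acute phase genes thus spanned 1.67 to 2.86 and the positive ones 1.47 to 2.32, and these ranges overlapped. The sums grew with the length of called peak, so the density was compared too. Per kb of called peak 7 of the 8 members, all but TTR, were higher in both tazemetostat libraries, against 60.4% of genes. With 2 against 2 libraries the two-sided exact permutation test of a sum cannot go below p = 0.3333, which all 8 members reached. With the tags in peaks of each library set equal, 2 of the 8 members stayed higher (TTR and RBP4) and 3 were lower (TF, ORM1 and ORM2). Over all genes 15.4% were higher and 31.9% lower on this scale.

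**Figure D3:**
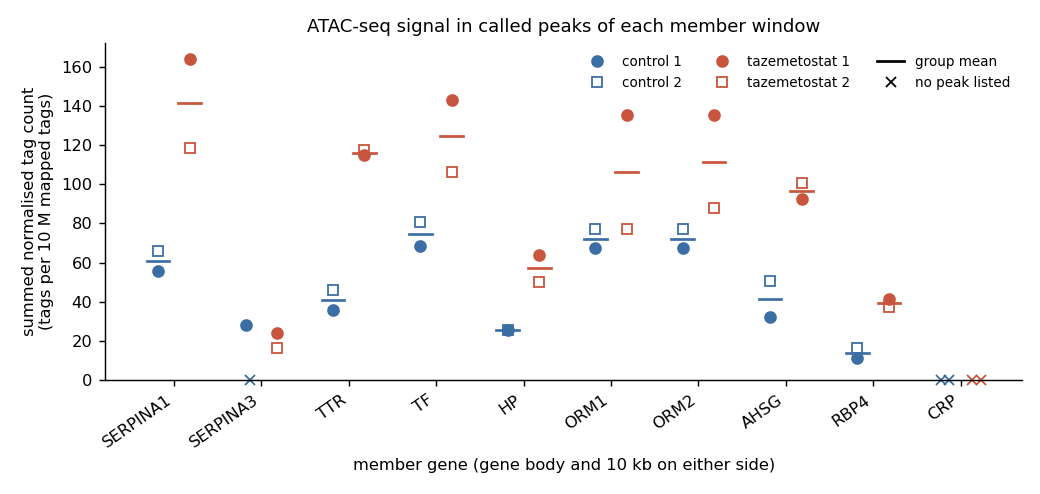
Summed normalized tag count (vertical axis, tags per 10 M mapped tags) over the peaks of each member window, with 1 point a library, a bar at the mean of 2 libraries where every library has a value, and a cross where no peak was listed. The tazemetostat points lie above both control points for 8 genes, with 77.2 against 76.9 the closest pair at ORM1.

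**Figure D4:**
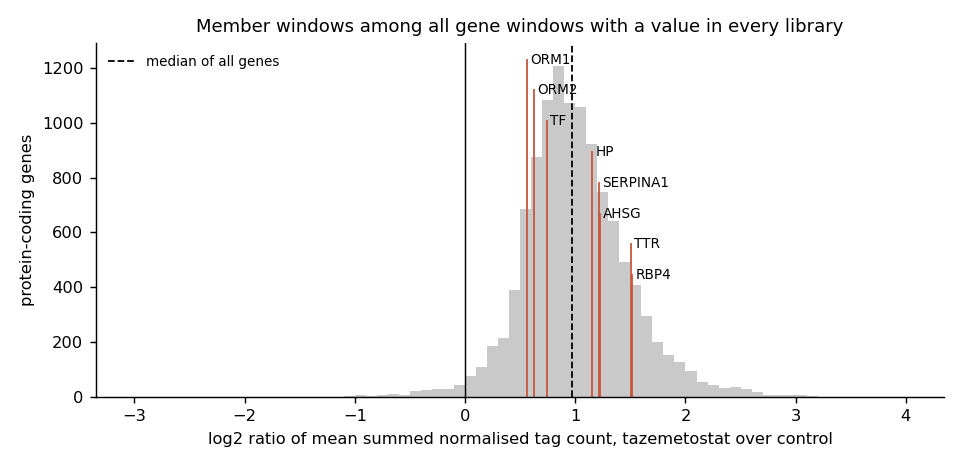
Distribution over 11439 protein-coding genes of the log2 ratio of the mean summed normalized tag count, tazemetostat over control (horizontal axis, bins of 0.1), with genes per bin on the vertical axis. The dashed line marks the median of 0.97, and the 8 members marked by red lines fall on both sides of it.

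For regions with exactly 1 peak in every library, limma was fitted to log2(normalized tag count + 1) over all 15383 such regions. With Benjamini-Hochberg adjustment 42.7% of them rose and 0.247% fell under tazemetostat. The member windows held 16 of these regions, of which 9 (56.2%) rose and none fell. All 16 changes lay above 0, as did 95.4% of the changes over all regions. Fitted per kb of called peak instead, limma called 5 of the 16 (31.2%), against 32.9% of all regions. On the scale without length the median log2 change of the 16 was 0.82, with a range from 0.17 to 1.36, against a median of 0.70 over all regions. Of the 7 regions at member starts 4 rose (median 0.80), as did 5 of the 9 regions elsewhere in the windows (median 0.84). In 13 of the 16 regions (81.2%) both tazemetostat values exceeded both control values, against 81.6% of all regions.

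The members' calls, like those over all regions, rested on the scaling to mapped tags. The length of called peak mattered less over all regions, where 5063 were called higher per kb in place of 6569. At the members it was 5 in place of 9. Per kb of peak the calls held at the SERPINA1 -7.5 kb, TTR +14.6 kb and TF -3.6 kb regions, were lost at the other 6, and were gained at the SERPINA1 -12.0 kb region and the TF start, with a median change of 0.48 against 0.41 over all regions. After centring each library on its median no region passed limma's threshold, among the members or over all regions. The member regions then had a median change of 0.06 and adjusted p from 0.42 to 0.974 in limma. edgeR with TMM factors and DESeq2 also called 0 of the 16, and called 0.15% and 0.0195% of all regions higher. With the library sizes of the file headers edgeR called 9 of the 16, against 48.5% of all regions. Leaving out either tazemetostat library left 1 in that group, and limma's calls did not hold, at the members or over all regions. The median change of the 16 was 0.81 without replicate 1 and 0.90 without replicate 2, against 0.61 and 0.80 over all regions.

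**Figure D5:**
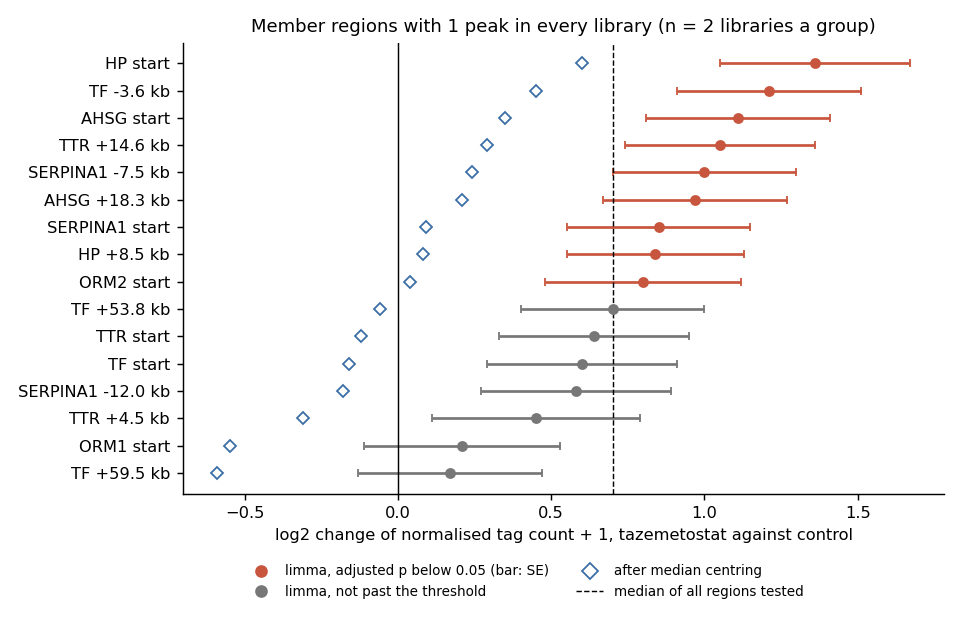
Log2 change of normalized tag count + 1 under tazemetostat (horizontal axis) for the 16 member regions with 1 peak in every library, with 2 libraries a group. Filled points are limma estimates with bars of 1 SE, red where the adjusted p is below 0.05, open diamonds are the changes after median centring, and the dashed line is the median of all 15383 regions, 0.70. The HP start has the largest change and the ORM1 start and the TF +59.5 kb region, which is the SRPRB start, the smallest. Centring moves 7 of the 16 below 0 and leaves 9 above it, with 42.9% of all regions above 0.

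SERPINA1 encodes alpha-1-antitrypsin, the main plasma inhibitor of neutrophil elastase (chr14:94376747-94390693 in hg38, minus strand). At its start (chr14:94388378-94389160, promoter) the normalized tag count was 22.1 and 27.3 in control replicates 1 and 2 and 43.3 and 46.7 in tazemetostat replicates 1 and 2. These came from 38, 65, 86 and 124 tags. The groups did not overlap, and the region rose with a log2 change of 0.85 (SE 0.30, adjusted p = 0.0315 in limma). A region 7.5 kb upstream (chr14:94395707-94396488, in an intron of the noncoding gene ENSG00000289541) gave 24.4 and 25.6 in the controls and 55.4 and 47.1 under tazemetostat. It rose by 1.00 (SE 0.30, adjusted p = 0.0176) and exceeded the start region in every library but control replicate 2. A weaker region 12.0 kb upstream (chr14:94400377-94400844) gave 9.31, 13.0, 20.7 and 13.9, with a log2 change of 0.58 (SE 0.31, adjusted p = 0.114). Around the far end of the gene, 3 regions with intergenic centres were called in 1 tazemetostat library each. The region at 30.7 in replicate 1 overlapped the end of the gene body (chr14:94376254-94376969), and those at 14.1 in replicate 1 and 10.9 in replicate 2 lay beyond it. The sum over the window was 55.81 and 65.9 in the controls and 164.2 and 118.6 under tazemetostat, over 1290, 1611, 3121 and 2069 bp of called peak. Per kb of peak this was 43.3 and 40.9 against 52.6 and 57.3.

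The upstream region is shown because it was the larger SERPINA1 change and its centre holds a CEBP motif. The 200 bp around its centre (chr14:94395997-94396196, plus strand, read from hg38) are given in lower case, with the match to TTGCNNAA on the opposite strand in capitals, at chr14:94396088-94396095.
SERPINA1 upstream region: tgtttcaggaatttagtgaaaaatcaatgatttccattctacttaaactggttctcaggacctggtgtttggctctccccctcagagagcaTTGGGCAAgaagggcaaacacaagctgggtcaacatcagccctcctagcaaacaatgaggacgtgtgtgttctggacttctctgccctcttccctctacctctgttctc
The 200 bp at the centre of the SERPINA1 start region held none of the 7 motifs searched.

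SERPINA3 encodes alpha-1-antichymotrypsin, an inhibitor of cathepsin G (chr14:94612384-94624055, plus strand). Its start region (chr14:94612127-94612695) was called at 19.8 in the first control, at 24.2 and 16.2 under tazemetostat, and not at all in the other control. The tazemetostat values thus lay on both sides of the single control value. In the control without a call, replicate 2, the nearest peak was 12.7 kb from the start. The only other region, 20.9 kb downstream of the start, was called at 8.14 in control replicate 1. SERPINA3 was the member with a peak in its window that showed no separation of the groups, at 27.94 and none in the controls and 24.2 and 16.2 under tazemetostat.

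HP encodes haptoglobin, which binds free hemoglobin (chr16:72054505-72061055, plus strand). Its start region (chr16:72054161-72054850) gave 9.89 and 11.3 in the controls and 35.3 and 23.3 under tazemetostat, from 17, 27, 70 and 62 tags. It had the lowest control counts of the 7 start regions with values in every library and the largest change of the 16 member regions. The log2 change was 1.36 (SE 0.31, adjusted p = 0.00804 in limma). After median centring it was 0.60 (unadjusted p = 0.0368, adjusted p = 0.42). Per kb of peak the values were 33.0 and 29.8 against 55.3 and 33.8, the called peaks being 300 and 379 bp long in the controls and 638 and 689 bp under tazemetostat. In the limma fit per kb the change was 0.45 and the call was lost (adjusted p = 0.0865), and the largest member change was then 0.91 at the TF -3.6 kb region. The second region of the window was the start of HPR, the haptoglobin-related gene (chr16:72062773-72063333). It gave 15.7 and 14.3 against 28.7 and 26.7 and rose by 0.84 (SE 0.29, adjusted p = 0.0308). How tags that fit both HP and HPR were placed is not given in the sources used here. Neither region was called in fewer than 4 libraries, so the HP window is described by these 2 regions alone. Its sum was 25.59 and 25.6 in the controls, over 678 and 839 bp of peak, and 64.0 and 50.0 under tazemetostat, over 1189 and 1223 bp.

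ORM1 and ORM2 encode the orosomucoids, alpha-1-acid glycoproteins that bind drugs and lipids (chr9:114323098-114326479 and chr9:114329869-114333251, both on the plus strand). They are adjacent, near-identical copies, and how tags that fit both copies were placed is not given in the sources used here, so the split between them is uncertain. The ORM1 start (chr9:114322403-114323432) gave 39.0 and 44.1 in the controls and 63.0 and 36.9 under tazemetostat. These groups overlapped, and the log2 change of 0.21 did not pass the test (SE 0.32, adjusted p = 0.544 in limma). The ORM2 start (chr9:114329289-114330088) gave 28.5 and 32.8 against 72.6 and 40.3. It rose by 0.80 (SE 0.32, adjusted p = 0.0481), the called member region closest to the threshold. Both regions stood little above their surroundings, with 4.06 to 5.32 times the tags of the local background against a filter of 4. ORM2 took 42.2% of the tags of the pair in control replicate 1 (95% Clopper-Pearson interval 33.1 to 51.8) and 42.6% in control replicate 2 (35.4 to 50.1). Under tazemetostat its share was 53.5% (47.4 to 59.6) and 52.2% (45.1 to 59.2). This share was chosen for description after the values were seen, and the intervals cover counting error only. Per kb of peak the ratio of ORM2 to ORM1 was 1.03 and 1.08 in the controls and 1.27 and 1.17 under tazemetostat. At 9.4 kb downstream of the ORM2 start a further region, in an intron of AKNA, was called at 10.5 in tazemetostat replicate 2. The ORM1 window summed to 67.5, 76.9, 135.6 and 77.2 over 1202, 1348, 1682 and 1092 bp of peak, and the ORM2 window differed from it by the AKNA region alone, which brought the last value to 87.7 over 1392 bp.

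CRP encodes C-reactive protein, a pentraxin that binds phosphocholine on microbes and damaged cells (chr1:159712289-159714589, minus strand). No library listed a peak in its window. The nearest peak lay 110.5 and 94.3 kb from the start in the controls and 68.7 and 84.3 kb under tazemetostat. CRP is thus the member for which no level and no change can be given.

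TTR encodes transthyretin, the carrier of thyroxine and of the retinol-binding protein (chr18:31557009-31598833, plus strand). Its annotated body reaches far upstream of the start of the main transcript at position 31591877, and its window held 10 regions, the most of any member. The start region (chr18:31591564-31592037) gave 11.6 and 16.4 in the controls and 26.7 and 18.1 under tazemetostat. The groups did not overlap, but the log2 change of 0.64 did not pass the test (SE 0.31, adjusted p = 0.0903 in limma). An intronic region 4.5 kb downstream of the start (chr18:31596093-31596591) gave 14.5, 7.14, 11.6 and 17.7, with overlapping groups (log2 change 0.45, SE 0.34, adjusted p = 0.238). Beyond the gene end, a region 14.6 kb from the start (chr18:31606176-31606771, intergenic) gave 9.89 and 16.0 against 30.7 and 24.1. It rose by 1.05 (SE 0.31, adjusted p = 0.0182).

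Regions that both tazemetostat libraries listed and no control did were found at 1 member, TTR, while 32.5% of all protein-coding genes had such a region. The windows of all genes were longer, with a median of 47.5 kb against 29.2 kb for the members, so these shares are not matched for length. No member had a region called in both controls alone, against 1.34% of genes. The TTR regions lay 40.8 kb upstream of the start (chr18:31550956-31551299, in an intron of DSG2-AS1) and 33.1 kb upstream (chr18:31558564-31558908, in the annotated TTR intron). The former gave 7.56 and 12.0 in tazemetostat replicates 1 and 2 from 15 and 32 tags, and the latter 7.56 and 9.03 from 15 and 24 tags. Both were small: the lowest normalized tag count listed in a library was 4.89 to 6.4. With equal numbers of peaks taken from each library no member held such a region (12.4% of genes did), and with 50 kb on either side of the gene body 6 of the 10 members held such a region, against 57.5% of genes. Upstream of the TTR start, a region at 4.2 kb was also called at 6.30 in control replicate 2 and at 17.6 and 12.0 under tazemetostat. The other 4 upstream regions were called in 1 tazemetostat library each, at 6.02 to 13.1. The window sum was 35.99 and 45.84 in the controls and 114.82 and 117.38 under tazemetostat. Per kb of called peak it was 40 and 31.1 against 40 and 34.3, so the TTR sum moved with the length of called peak, which was 900 and 1473 bp in the controls and 2874 and 3427 bp under tazemetostat.

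RBP4 encodes the plasma carrier of retinol, which circulates bound to TTR (chr10:93591687-93601744, minus strand). Its start region (chr10:93601162-93601581) gave 11.1 in control replicate 1 and 23.2 and 21.1 under tazemetostat, and control replicate 2 had no peak there. A region 4.0 kb into the gene (chr10:93597075-93597474, intronic) was called at 16.4 in control replicate 2 and 16.2 in tazemetostat replicate 2. The controls therefore shared no RBP4 region. The remaining region, 0.6 kb upstream (chr10:93601673-93602051), was called at 18.1 in tazemetostat replicate 1. RBP4 had the highest ratio of sums (11.1 and 16.4 against 41.3 and 37.3), over 300 and 385 bp of peak against 753 and 696 bp, but its control sums came from different regions, and none of its regions could enter the limma fit.

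TF encodes transferrin, the iron carrier of plasma (chr3:133746040-133796641, plus strand). Its start region (chr3:133745927-133746560) gave 22.7 and 26.5 in the controls and 47.4 and 30.1 under tazemetostat. The groups did not overlap, but the log2 change of 0.60 missed the threshold (SE 0.31, adjusted p = 0.102 in limma). A region 3.6 kb upstream (chr3:133742450-133743082, in an intron of the noncoding gene ENSG00000291042) gave 18.6 and 18.1 against 50.4 and 38.0. It rose by 1.21 (SE 0.30, adjusted p = 0.0107), and both controls were lower here than at the start while both tazemetostat values were higher. Past the gene end, a region 53.8 kb from the start (chr3:133799862-133800606) gave 15.1, 13.9, 22.2 and 26.4 (log2 change 0.70, SE 0.30, adjusted p = 0.0568). The start of SRPRB, a subunit of the signal recognition particle receptor (chr3:133805566-133806206), gave 12.2, 12.6, 16.6 and 12.0, with overlapping groups and the smallest change, 0.17 (SE 0.30, adjusted p = 0.601). After median centring it was -0.59 (unadjusted p = 0.0366, adjusted p = 0.42). Within the gene, 1 exonic region was called at 9.66 in control replicate 2 and 1 at 6.55 in tazemetostat replicate 1. The window summed to 68.6 and 80.76 in the controls over 1867 and 2377 bp of peak. With the inhibitor it summed to 143.15 and 106.5 over 2251 and 2165 bp. Scaled to mapped tags, TF thus gained in tag density (36.7 and 34 against 63.6 and 49.2 per kb) while the called lengths overlapped. With the tags in peaks of each library set equal, the TF sum was lower in both tazemetostat libraries (mean 91.2 against 118 in the controls).

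AHSG encodes fetuin-A, a carrier that keeps calcium phosphate in solution (chr3:186613060-186621318, plus strand). Its start region (chr3:186612580-186613317) gave 16.3 and 21.0 in the controls and 46.4 and 36.5 under tazemetostat. It rose by 1.11 (SE 0.30, adjusted p = 0.0139 in limma), the largest change at a start after HP. A region 18.3 kb downstream of the start (chr3:186631012-186631711, in an intron of HRG-AS1) gave 15.7 and 21.4 against 34.3 and 39.5 and rose by 0.97 (SE 0.30, adjusted p = 0.0214). In AHSG and HP every region with a value in each library rose, but per kb of peak none of these 4 regions passed limma's threshold, with adjusted p of 0.0505 and 0.0936 in AHSG and of 0.0865 and 0.0633 in the HP window. A region 6.7 kb upstream (chr3:186606108-186606574) was not called in control replicate 1 and gave 8.40 in control replicate 2 and 11.6 and 17.3 under tazemetostat. An exonic region 7.9 kb from the start was called at 7.53 in tazemetostat replicate 2. The AHSG sum was 32.0 and 50.8 in the controls over 800 and 1236 bp of peak, against 92.3 and 100.83 over 1589 and 2173 bp.

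Promoter sequences of 7 members were matched in RefSeq (GRCh38.p14), namely SERPINA1, SERPINA3, TF, ORM1, AHSG, RBP4 and CRP. The 250 bases before the start of AHSG (chr3:186612810-186613059, plus strand), TF (chr3:133746143-133746392, plus strand) and RBP4 (chr10:93601236-93601485, minus strand) are shown because they were the promoters with a motif match and lay inside called regions. CRP (chr1:159714590-159714839, minus strand) is shown as the promoter with no peak. Sequences run 5′ to 3′ along the gene, and capitals mark the matches.
AHSG: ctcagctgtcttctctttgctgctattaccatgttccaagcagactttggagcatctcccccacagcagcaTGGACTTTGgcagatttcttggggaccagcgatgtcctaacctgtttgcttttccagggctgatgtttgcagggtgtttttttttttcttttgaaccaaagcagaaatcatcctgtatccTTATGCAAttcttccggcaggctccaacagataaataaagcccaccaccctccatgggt
TF: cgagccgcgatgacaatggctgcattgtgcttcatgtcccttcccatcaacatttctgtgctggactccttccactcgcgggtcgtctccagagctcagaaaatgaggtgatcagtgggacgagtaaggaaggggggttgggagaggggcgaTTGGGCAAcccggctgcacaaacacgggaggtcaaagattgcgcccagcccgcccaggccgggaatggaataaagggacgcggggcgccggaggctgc
RBP4: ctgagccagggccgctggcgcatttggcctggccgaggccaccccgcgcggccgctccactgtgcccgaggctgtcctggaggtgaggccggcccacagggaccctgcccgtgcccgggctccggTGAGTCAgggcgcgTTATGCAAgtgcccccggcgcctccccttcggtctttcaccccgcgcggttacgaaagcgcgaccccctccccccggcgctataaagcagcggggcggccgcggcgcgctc
CRP: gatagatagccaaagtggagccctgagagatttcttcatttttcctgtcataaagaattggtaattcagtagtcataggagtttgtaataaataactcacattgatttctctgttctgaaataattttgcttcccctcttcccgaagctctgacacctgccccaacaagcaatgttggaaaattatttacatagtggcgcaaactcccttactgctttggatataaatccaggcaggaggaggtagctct
In AHSG the capitals are TGGACTTTG, the HNF4 motif CAAAGTCCA on the opposite strand, at -179 to -171 from the start, and TTATGCAA, a CEBP match, at -59 to -52. In TF they are TTGGGCAA, a CEBP match at -98 to -91. In RBP4 they are TGAGTCA, an AP-1 match at -125 to -119, and TTATGCAA at -111 to -104.

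The 7 motifs were searched on both strands as CEBP TTGCNNAA, STAT TTCNNNGAA, HNF1 GTTAATNA, HNF4 CAAAGTCCA, FOXA TGTTTAC, NFkB GGGNNTTCC and AP-1 TGANTCA, where N is any base. Matches to different motifs were counted separately where they overlapped. In the 200 bp around the centre, a CEBP match was present in 9 of the 36 member regions (25%), against 9.5% of the 78220 regions on the primary chromosomes. These were regions of AHSG, TF, RBP4, SERPINA1 and TTR. The TTR matches lay at -33.1, -18.6, -10.3 and -4.2 kb, where the regions at -18.6 and -10.3 kb were called in tazemetostat replicate 2 alone (6.02 and 7.53). Of the 16 regions tested, both AHSG regions, the SERPINA1 -7.5 kb region and the TF start held a match. Whether a match went with a rise was not tested. For the other motifs the member shares were 8.33% for FOXA against 6.5% of all regions, 8.33% for AP-1 against 8.34%, 5.56% for STAT against 4.97%, and 2.78% for HNF1 and HNF4 against 2.26% and 1.48%. No member region held the NFkB motif, which was present in 3.44% of all regions. In promoters a CEBP match was found in 3 of the 7 members and in 9.05% of 35116 RefSeq promoters of this length. The HNF4 match was found in 1 of 7 against 0.325% and the AP-1 match in 1 of 7 against 6.57%, while STAT (6.57% of all promoters), NFkB (5.78%), FOXA (2.98%) and HNF1 (2.19%) had no match in the 7. The promoter matches of the members also lay in the 200 bp at the centre of their start regions, so these tallies share sites. A match describes letters in the window and not a bound site. The strings were matched exactly, so a site that differs by a single base was not counted. The SERPINA1 promoter, for example, holds gttaatat, which differs from the HNF1 motif at the last base. The lack of a match therefore does not show that a site is absent.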

How the data were processed

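Peak lists of 4 libraries were analysed, grouped by their titles. The submitters' processing notes name Trim Galore 0.6.6 for trimming, Bowtie2 2.3.5.1 for alignment (to hg38) and HOMER 4.11.1, with which the authors called peaks library by library. Per the file headers, peaks had a false discovery rate of 0.001 (0.05 in the methods), at least 4 times the tags of the surrounding 10 kb, and 1 tag per bp at most. Any shift for the transposase is not given in the sources used here. The deposited normalized tag count is a signal, tags per 10 M mapped tags. The deposited score, a count of tags, the p-value and the clonal fold were not used, and the deposited fold over local background served as a filter.

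Peaks overlapping by at least 1 bp were joined. Genes and starts came from GENCODE 44, and peak ends fell within the hg38 chromosome lengths. limma 3.58.1 was run in R 4.3.3 on log2(normalized tag count + 1), which understates changes of low values. The count alternatives used whole tags recovered from the signal (100% of peaks within 0.25 of a whole number) in the quasi-likelihood test of edgeR 4.0.16 and in DESeq2 1.42.0, and the latter left 1492 regions without an adjusted p. Sums used numpy 2.4.6 and pandas 2.3.3 and exact permutation tests. The authors compared groups from tag directories, and these were not used here. Nothing says that the libraries came from separate cultures, so p-values measure only the spread between them. A region without a peak can still hold tags, since the local filter removed 62.7% to 80.0% of putative peaks.

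The members, gene lists, motifs and tests were chosen with earlier results of these data known. All members and their regions are named, and of each pathway list up to 3 genes with the largest difference of group means among those whose groups do not overlap. The code was tested on simulated data. Alternatives were scaling, pseudocount, filters, joining, window width, a replicate block and leaving out each library.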

Additional observations from a re-analysis of the deposited data

How the results depend on the processing

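Over all 15383 regions limma called 6569 higher and 38 lower. Median centring gave 0 and 0 (468 and 1188 at unadjusted p below 0.05), edgeR with TMM factors 23 and 174, and DESeq2 3 and 106. Leaving out each library gave 0 to 8398 higher and 0 to 71 lower, 0 without either tazemetostat replicate (3238 and 5977 higher at unadjusted p below 0.05) and 3237 higher without control replicate 1, where the lone library is assumed to vary like the other group. With the replicate number as a block it gave 5046 and 27 and 6 member regions in place of 9, but the deviations of same-numbered libraries correlated at -0.002, so the numbers do not show pairing. Members with a tazemetostat-only region numbered 1, with equal peak numbers 0, with 50 kb on either side 6, and on leaving out a library 2 to 4 (control-only 0 to 1), while the share of all genes rose to 37.9% to 54.8% (control-only 2.56% to 16.3%). Members with higher sums numbered 8 (89.3% of genes), and with tags in peaks set equal 2, with 3 lower (15.4% and 31.9% of genes). With a local fold of at least 8, 2 of the 3 members with values were higher, against 63.1% of genes. The count of members with lower sums on leaving out a library was 0 to 1, against 1.15% to 2.37% of genes. The 1 was SERPINA3 without control replicate 2. Of 90 alternative differences of member sums 34 moved by at least the larger group SD, the spread between its 2 libraries. The other 56 include all differences from leaving out 1 library, which cannot move that far with 2 libraries a group. The 90 also include differences per kb of peak, which are in another unit than the sums. The count therefore does not measure stability. Log2 changes turned negative under centring, TMM and DESeq2 at the SERPINA1 -12.0 kb region (-0.18, -0.12, -0.10), the TTR start (-0.12, -0.07, -0.06), TTR +4.5 kb (-0.31, -0.20, -0.26), the TF start (-0.16, -0.09, -0.08), the SRPRB start (-0.59, -0.52, -0.52) and the ORM1 start (-0.55, -0.48, -0.48), and under centring alone at TF +53.8 kb (-0.06). Leaving out libraries spanned -0.01 to 0.92 at TTR +4.5 kb, -0.04 to 0.39 at SRPRB and -0.16 to 0.59 at ORM1; the lowest came without control replicate 2 for TTR and without tazemetostat replicate 1 for the others. The cause was not tested. With at most 144 tags behind a member region, small differences were not detectable at this depth.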

Other observations

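Genes of the same pathways were counted by the same windows, and their counts are read against all protein-coding genes, of which 89.3% of those with a value in every library were higher, with a median ratio of 1.96. Of 8 further clade A serpins, 7 had a value in every library, and all 7 had a higher summed normalized tag count in both tazemetostat libraries, with a median ratio of 2.03. SERPINA5, the protein C inhibitor, gave 114.0 and 168.0 in the controls and 292.26 and 241.4 under tazemetostat. SERPINA9 gave 37.3 and 48.72 against 92.7 and 84.3, and SERPINA4, the kallikrein inhibitor kallistatin, gave 14.5 and 45.7 against 73.06 and 62.9. Of 17 other acute phase protein genes, 10 of the 11 with a value in every library were higher (median ratio 2.4), and APCS, a pentraxin like CRP, had no peak. The complement gene C3 gave 84.4 and 137.9 against 264.1 and 212.7, the fibrinogen chain gene FGG 51.7 and 64.3 against 153.2 and 144.17, and the protease inhibitor gene A2M 59.9 and 63.8 against 177.45 and 119.7.

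Among 12 other carrier genes, 7 of the 8 with a value in every library were higher (median ratio 2.45), and GC, the vitamin D carrier, had no peak. ALB, the albumin gene, gave 8.73 and 28.96 in the controls and 76.07 and 65.56 under tazemetostat. Its ratio was 3.76. AMBP gave 64.6 and 34.0 against 131.01 and 139.3, and IGFALS gave 57.0 and 83.2 against 125.5 and 120.1. Of 16 genes of IL-6 and IL-1 signalling all 13 with a value in every library were higher (median ratio 2.05). The kinase gene JAK1 gave 42.49 and 105.8 against 268.53 and 245.88, with 7 regions called in both tazemetostat libraries alone. The receptor genes IL1R1 and IL1RAP gave 145.41 and 162.1 against 361.33 and 267.25, and 33.79 and 50.02 against 119.85 and 109.98. Regions called in both tazemetostat libraries alone were present at 1 of 8 clade A serpins, 7 of 17 acute phase genes, 5 of 12 carriers and 8 of 16 signalling genes, against 32.5% of all protein-coding genes. None of these genes was lower in both tazemetostat libraries, and SERPINA6 and SERPINA7 stood in both the serpin and the carrier list.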
